A study of Oryzias latipes with 6 samples.

Results

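The 100 most abundant transcripts of the WT heart were described across 6 medaka genotypes at 5 days post-fertilization (dpf). Abundance was the mean CPM of a transcript (its read estimate divided by the library total and multiplied by 1e6) over 6 WT libraries. The 100 transcripts were chosen by these WT levels out of the 37495 listed, of which they are 0.267%, and all 100 passed the filter on low counts. Each is called here by its rank in WT hearts, rank 1 being the highest. The deposited tables give transcript identifiers alone, and 0 of 37495 were found in the table of gene names used here. Neither the genes behind these transcripts nor the tissue label could therefore be checked against known heart markers. The tables hold no transcript lengths, so the order of the ranks is an order of reads and not of molecules per length.

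Each of the 6 genotypes was represented by 6 libraries of whole heart. Replicate numbers below are the order in which a genotype's libraries were deposited, and they pair nothing across genotypes. [KO + XBP1(S)] medaka were AXER-/- and XBP1(S/+), and [KO + ATF6α(N)] medaka were AXER-/- and ATF6(N/+). AXER-KO medaka were AXER-/- alone. [WT + XBP1(S)] medaka were AXER+/+ and XBP1(S/+), [WT + ATF6α(N)] medaka were AXER+/+ and ATF6(N/+), and WT medaka were AXER+/+ alone. The labels name the medaka HdrR and the methods name the strain cab, so the strain is not certain. The AXER-/- allele was a frameshift made with TALENs in 1 line. Both active factors were made from 1 of 2 alleles of their own locus, so that every cell that uses the locus can make them. Whether the 6 libraries of a genotype were made from different hearts or clutches is stated in neither the labels nor the methods. The p-values below therefore rest on a spread among libraries that could be technical alone. Depth was 1850805 to 19619140 reads per library and was lowest in [KO + XBP1(S)] medaka, at a median of 2477696. No libraries of a genotype were identical, and every pair differed by more than sampling noise over the 100 transcripts, by a chi-square of at least 79.3 per degree of freedom in 90 pairs.

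AXER is an exchanger in the membrane of the ER that brings ATP into its lumen, where Hsp70- and Hsp90-type chaperones need it to fold secretory and membrane proteins. Unfolded proteins set off the unfolded protein response, of which XBP1(S), made after splicing of its mRNA by IRE1, and ATF6α(N), the fragment cut from ATF6α, are transcription factors. A small number of transcripts usually holds a large share of the mRNA in muscle and in blood cells, and fish erythrocytes keep their nuclei. The study's authors described the heart RNA as a mixture with erythrocyte RNA. In such bulk RNA, fewer cells of a type and less RNA per cell cannot be told apart.

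The 100 transcripts held 41.1% to 51.8% of the reads of each of the 36 libraries. In [KO + XBP1(S)] libraries their share was 43.0% at the lowest, 45.7% at the median and 47.4% at the highest (mean 45.5% ± 1.66, SD, n = 6). In [KO + ATF6α(N)] libraries it was 45.7%, 47.2% and 51.8% in the same order (mean 48.1% ± 2.30, SD, n = 6). In AXER-KO libraries it was 46.0%, 49.4% and 51.3% (mean 49.2% ± 2.03, SD, n = 6). The ranges of the genotypes without AXER overlapped one another, and the AXER-KO mean was the highest of the 6 genotypes. In [WT + XBP1(S)] libraries the share was 43.4%, 47.7% and 51.8% (mean 47.3% ± 2.96, SD, n = 6). In [WT + ATF6α(N)] libraries it was 41.1%, 44.2% and 45.7% (mean 44.0% ± 1.65, SD, n = 6). In WT libraries, which chose the transcripts, it was 42.1%, 45.3% and 48.4% (mean 45.7% ± 2.40, SD, n = 6). The AXER-KO range lay above the [WT + ATF6α(N)] range, at 46.0% for the lowest library of AXER-KO medaka and 45.7% for the highest of [WT + ATF6α(N)] medaka. The [KO + XBP1(S)] range overlapped those of AXER-KO and [WT + XBP1(S)] medaka. These shares are descriptions without a test, because the transcripts were chosen with results of these libraries known.

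**Figure D1:**
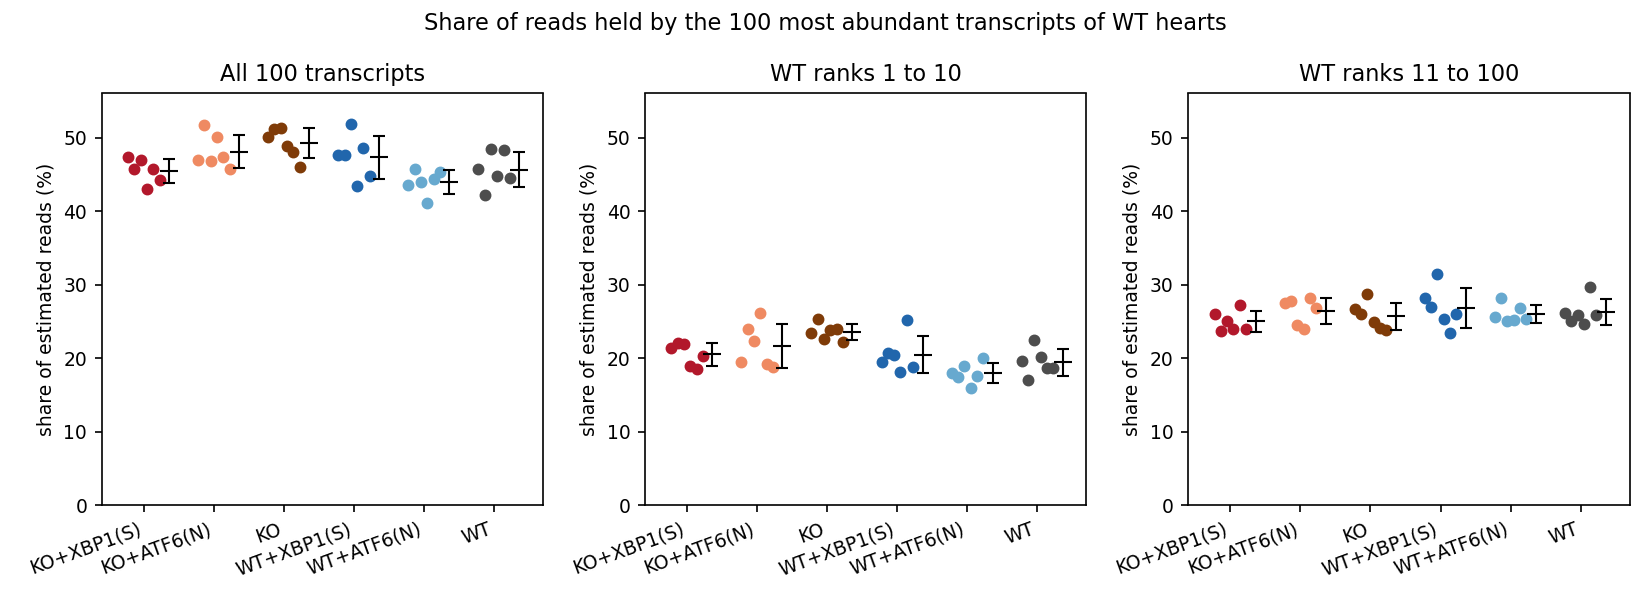
Share of estimated reads (%) by genotype in all 100 transcripts, in WT ranks 1 to 10 and in WT ranks 11 to 100; a point is 1 library, and the bar beside each group is the mean ± SD of 6 libraries. The share of ranks 1 to 10 spans 15.9% to 26.1% over the libraries and that of ranks 11 to 100 spans 23.5% to 31.4%.

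The differences in share lay in the first 10 ranks more than in the others. Ranks 1 to 10 held 20.5% ± 1.52 of the reads in [KO + XBP1(S)] libraries, 21.6% ± 2.98 in [KO + ATF6α(N)] libraries and 23.6% ± 1.08 in AXER-KO libraries (SD, n = 6 each). They held 20.4% ± 2.50 in [WT + XBP1(S)] libraries, 18.0% ± 1.42 in [WT + ATF6α(N)] libraries and 19.4% ± 1.83 in WT libraries (SD, n = 6 each). The genotype means of these 10 thus spanned 18.0% to 23.6%, whereas those of ranks 11 to 100 lay between 25.0% ([KO + XBP1(S)] medaka) and 26.9% ([WT + XBP1(S)] medaka). The next 100 transcripts of WT hearts held 10.8% to 11.8% of reads by genotype mean. The smallest number of transcripts that held 0.5 of a library's reads had genotype medians between 97 in AXER-KO and 143.5 in [WT + ATF6α(N)] libraries. The median was 116.5 in [KO + ATF6α(N)], 110.5 in [WT + XBP1(S)] and 133.5 in WT libraries, and the single libraries of all genotypes overlapped.

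The level of the first transcript was several times that of the tenth. In WT hearts the means of ranks 1 to 10 were 51689, 33048, 22919, 15563, 14961, 12276, 12128, 11621, 9993 and 9961 CPM. At or above 10000 CPM there were 8 transcripts, with 17.4% of WT reads, and at or above 1000 CPM there were 168, with 54.3%. The curve was flat where the list ends. The last 5 transcripts inside it, ranks 96 to 100, were at 1617, 1614, 1611, 1600 and 1595 CPM in WT hearts, and the first 5 outside it were at 1590, 1584, 1569, 1555 and 1549 CPM. A gap of 5.30 CPM divided rank 100 from the next transcript, so membership at this end rested on differences well below the SD of a single transcript (83 to 281 CPM over 6 WT libraries for ranks 97 to 100).

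Rank was kept closely across genotypes. Of the 100 transcripts, 72 were among the 100 highest of each of the 36 libraries and 98 were among the 200 highest of each. Of ranks 1 to 50, 48 stayed within the first 100 in every library, against 24 of ranks 51 to 100. By genotype means, 93 were among the first 100 of [KO + XBP1(S)] medaka, 95 in [KO + ATF6α(N)], 93 in AXER-KO, 91 in [WT + XBP1(S)] and 95 in [WT + ATF6α(N)] medaka, and 86 were so in all genotypes. The 15 transcripts that entered instead stood no lower than rank 194 in WT hearts. Some entered on a mean raised by 1 library, so these counts are in part those of single libraries. The entrant of WT rank 191 averaged 2047 CPM in [WT + XBP1(S)] libraries, with a median of 1117 and a highest value of 7025 CPM. In [KO + XBP1(S)] libraries it averaged 1657 CPM, with a median of 1198 and a highest value of 4652 CPM. The Spearman correlation of the 100 mean levels ran between 0.869 ([KO + XBP1(S)] and WT medaka) and 0.976 ([KO + ATF6α(N)] and [WT + XBP1(S)] medaka) over the 15 pairs of genotypes. It is given as a description over transcripts, which are not replicates and share their libraries.

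Genotype means of single transcripts were compared next. The highest genotype mean was within 1.2-fold of the lowest for 33 transcripts, over 1.5-fold for 14 and over 2-fold for 7. Rank 1 was the most abundant transcript in 33 of 36 libraries and the second in the other 3. Its level was 31952 CPM at the lowest, 57781 at the median and 61625 at the highest in [KO + XBP1(S)] libraries. It was 42993, 54657 and 82238 CPM in [KO + ATF6α(N)] libraries and 58218, 64019 and 83248 CPM in AXER-KO libraries. The AXER-KO values lay mostly above the [KO + XBP1(S)] values, with overlap. In the AXER+/+ genotypes rank 1 was at 35987, 50150 and 76634 CPM in [WT + XBP1(S)], at 36282, 42276 and 53682 CPM in [WT + ATF6α(N)] and at 39544, 51615 and 67386 CPM in WT libraries.

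Ranks 4, 5, 6 and 10 were the steadiest of the first 10, and rank 7 was the least steady. The SD of log2 CPM within genotypes was 0.16 for rank 4, 0.18 for rank 5, 0.16 for rank 6 and 0.14 for rank 10. It was 0.32 for rank 1, 0.39 for rank 8 and 0.81 for rank 7. Over all 100 transcripts its median was 0.24, and that of the next 100 was also 0.24. Rank 5 averaged 15185 CPM in [KO + XBP1(S)], 16240 in [KO + ATF6α(N)], 15115 in AXER-KO, 14500 in [WT + XBP1(S)], 16532 in [WT + ATF6α(N)] and 14961 in WT hearts. Rank 10 averaged 11572, 10118, 9754, 9832, 10147 and 9961 CPM in the same order of genotypes.

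The widest spans of rank over genotypes belonged to ranks 49, 95, 96, 78 and 97. Rank 49 stood at 169 in [KO + XBP1(S)], 69 in [KO + ATF6α(N)], 19 in AXER-KO, 93 in [WT + XBP1(S)] and 34 in [WT + ATF6α(N)] medaka. Its worst place in a single library, 302, was the worst of any of the 100. Rank 95 stood at 16 in [KO + XBP1(S)], 51 in [KO + ATF6α(N)], 85 in AXER-KO, 41 in [WT + XBP1(S)] and 31 in [WT + ATF6α(N)] medaka, and rank 96 followed it within 3 places in each of these genotypes. The high places of both in 3 of these genotypes came from 1 library each, as described below. Rank 78 ran from place 51 in AXER-KO to 98 in [WT + ATF6α(N)] medaka, and rank 97 from 94 in [KO + ATF6α(N)] to 136 in [WT + XBP1(S)] medaka.

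**Figure D2:**
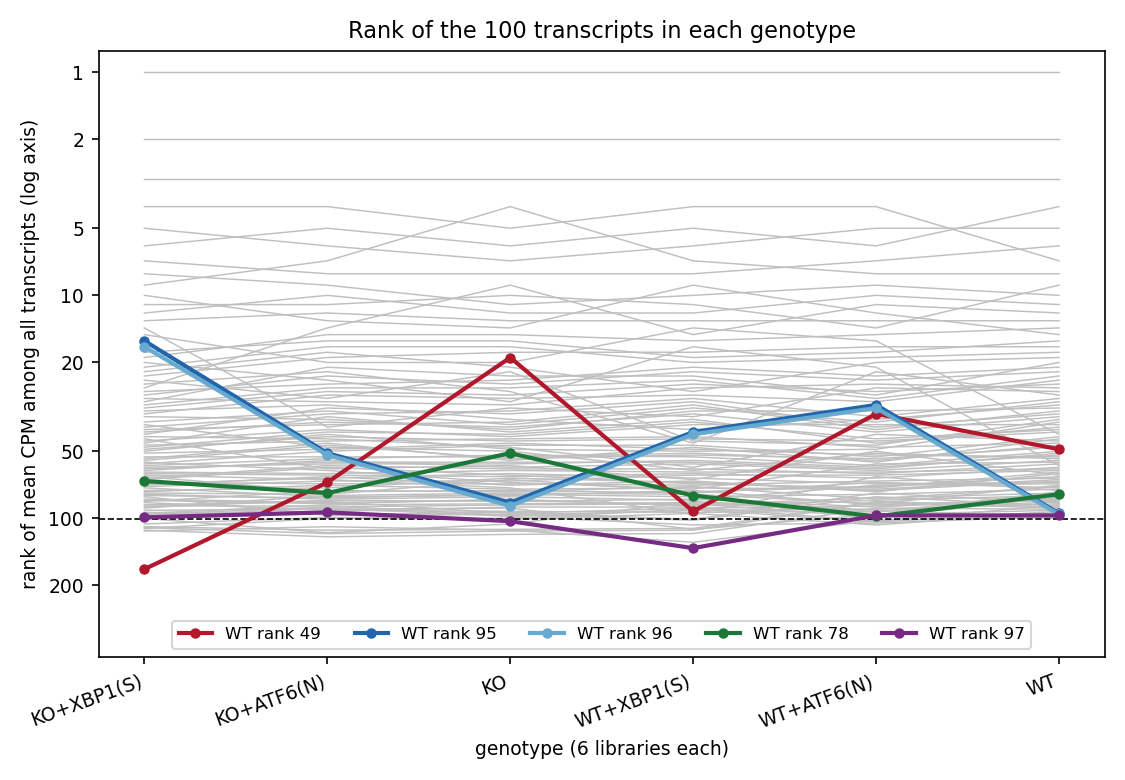
Rank of the mean CPM among all transcripts (log axis, highest at the top) in each genotype of 6 libraries; a grey line is 1 of the 100 transcripts, the coloured lines are the 5 with the widest span, and the dashed line marks the end of the first 100. Ranks 1, 2 and 3 keep their places in every genotype, and rank 49 crosses the dashed line to 169 in KO+XBP1(S).

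A group of 3 libraries stood apart from the others, most of all in 6 of the 100 transcripts, ranks 7, 15, 42, 58, 95 and 96. Together these 6 held 15.2% of reads in [KO + XBP1(S)] replicate 5, 14.1% in [WT + XBP1(S)] replicate 1 and 12.2% in [WT + ATF6α(N)] replicate 2, against 1.78% to 4.04% in WT libraries. Rank 7 was at 55417, 59399 and 45889 CPM in these libraries in the same order, and at 7233 to 33429 CPM in the other 33. Rank 95 was at 19554, 8014 and 13470 CPM in them, and at 874 to 4474 CPM in the other 33. The same 3 libraries were thus the highest of all 36 for both transcripts. Without its one library the mean of rank 7 was 14325 CPM in [KO + XBP1(S)], 15546 CPM in [WT + XBP1(S)] and 11813 CPM in [WT + ATF6α(N)] medaka, and 12128 CPM in all 6 WT libraries. In rank 100 the same libraries were the highest of their own genotypes, at 2297, 4463 and 2906 CPM, against 885 to 2779 CPM in the other 33 libraries. The libraries and transcripts were picked after their values were seen. Without these libraries, 10 of the 100 differed over 1.5-fold between the highest and lowest genotype mean, 4 differed over 2-fold and 42 stayed within 1.2-fold, and the Spearman correlations ran between 0.925 and 0.979. Rank 96 then stood at 70 in [KO + XBP1(S)], 81 in [WT + XBP1(S)] and 120 in [WT + ATF6α(N)] medaka, and rank 49 still had the widest span, at 157 in [KO + XBP1(S)] medaka.

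**Figure D3:**
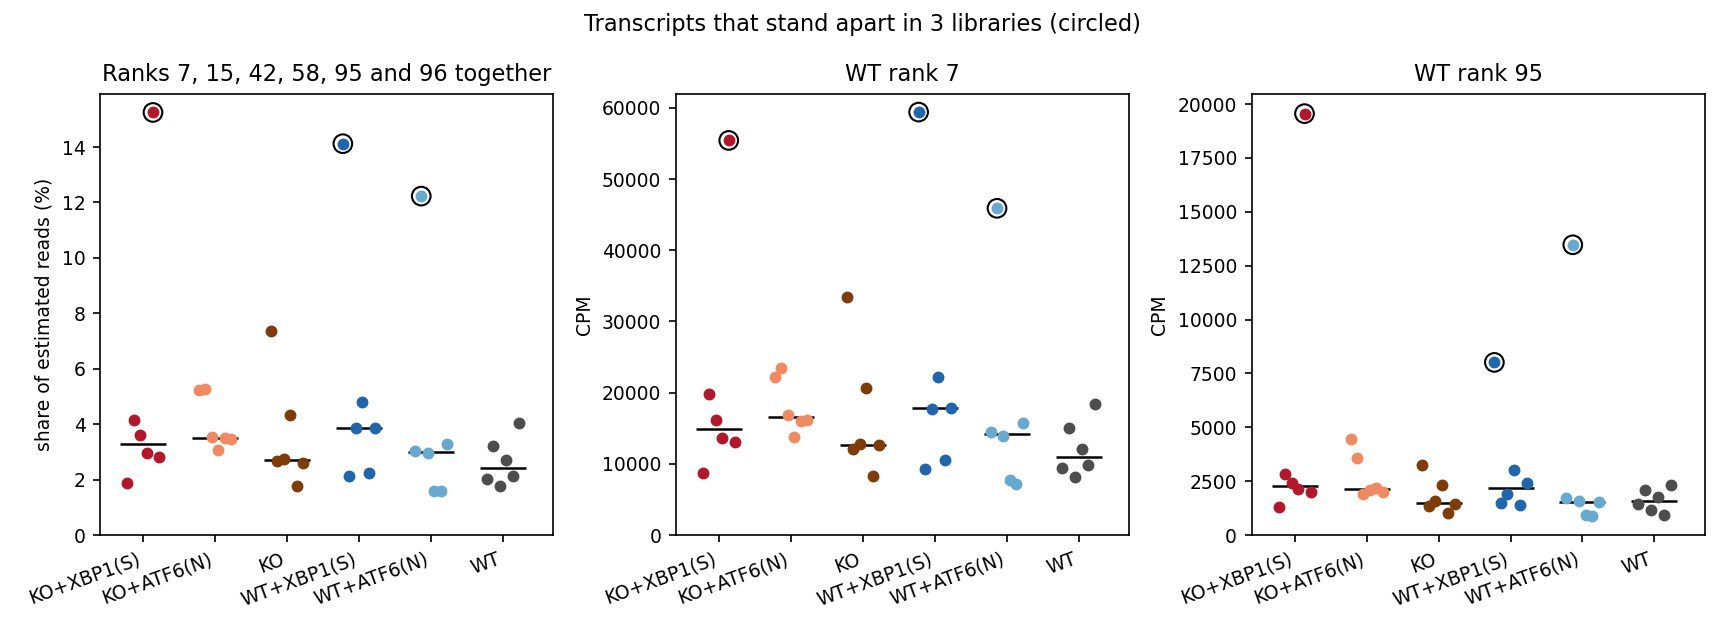
Share of reads (%) of ranks 7, 15, 42, 58, 95 and 96 together, and CPM of rank 7 and of rank 95, by genotype; a point is 1 library, the line is the median of 6 libraries, and circles mark the 3 libraries that stand apart. The circled libraries reach 12.2% to 15.2% in the first panel, whereas no other library exceeds 7.38%.

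Many of the 100 transcripts moved in near-constant ratio. With a limit of 0.1 on the SD of the log2 ratio of 2 transcripts over 36 libraries, chosen after the values were seen, 74 transcripts fell into 9 sets and 26 into none. Ranks 1, 2, 3 and 78 formed one set, in which rank 2 was 1.41 to 1.48 times rank 3 in every library. Ranks 4 and 6, 16, 18, 19 and 98, 28 and 75, 42 and 58, 83 and 86, 89 to 91, and 95 and 96 formed others, and the largest set held 53 transcripts. Rank 95 was 0.984 to 1.05 times rank 96. A set was built by chains, so that a transcript joined through 1 partner. In the set of 53, 499 of the 1378 pairs were under the limit and the largest SD was 0.315, in the set of ranks 16, 18, 19 and 98 it was 4 of 6 pairs, and in the other 7 sets every pair was under it. Transcripts in near-constant ratio rose and fell together over the libraries, so counts of the 100 below are not counts of independent results. Read estimates that are not whole numbers made up 68.5% of the values of the 100 transcripts, 51.0% of those of the next 100 and 1.88% of all values. Whether transcripts of a set belong to one gene or divide the same reads was not tested.

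The set of ranks 1, 2, 3 and 78 held 11.2% ± 2.53 of reads in [KO + XBP1(S)], 12.05% ± 3.08 in [KO + ATF6α(N)], 14.1% ± 1.68 in AXER-KO, 11.2% ± 3.18 in [WT + XBP1(S)], 9.20% ± 1.54 in [WT + ATF6α(N)] and 10.97% ± 1.92 in WT libraries (SD, n = 6 each). The set of 53 held 12.9% ± 2.05, 14.5% ± 1.71, 13.8% ± 1.98, 15.3% ± 3.24, 13.9% ± 1.19 and 15.1% ± 1.72 in the same order of genotypes. The highest mean of the first set was thus in AXER-KO medaka and that of the second in [WT + XBP1(S)] medaka, and no test was made of either. In the first set the AXER-KO libraries (11.96% to 16.6%) lay above the [WT + ATF6α(N)] libraries (7.06% to 11.6%), and all other pairs of genotypes overlapped, as did all pairs in the set of 53.

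Constitutive expression of XBP1(S) in AXER-KO medaka went with a lower level of 2 of the 100 transcripts, ranks 12 and 49, and with a higher level of none. Both were called by edgeR's quasi-likelihood test, with a Benjamini-Hochberg adjusted p under 0.05 over 18076 transcripts and a fold change above 1.5. Over all transcripts tested, 0.177% were called in this comparison and 0.0387% were called lower. DESeq2 and limma-voom each called ranks 12 and 49 and no other of the 100. At an unadjusted p under 0.05, 1 of the 100 was higher and 11 were lower, against 7.76% of all transcripts tested in either direction. Under scaling by library totals these were 4 and 4, against 8.03% of all. Standard errors of the 100 were smaller than those of all transcripts tested (median 0.185 against 0.352 under TMM). A change of equal size therefore passes an unadjusted p more easily in the 100, here and in the comparisons below.

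Rank 12 (ENSORLT00000006597.2) was at 1967 CPM at the lowest, 3567 at the median and 5357 at the highest in [KO + XBP1(S)] libraries, against 7862, 11148 and 14289 CPM in AXER-KO libraries. The 2 genotypes did not overlap. The log2 fold change was -1.79 (standard error 0.36, 95% interval -2.52 to -1.06, edgeR adjusted p = 0.0174). Rank 49 (ENSORLT00000006569.2) was at 433, 837 and 1524 CPM in [KO + XBP1(S)] libraries, against 2889, 3693 and 6403 CPM in AXER-KO libraries, again without overlap. Its log2 fold change was -2.37 (standard error 0.51, 95% interval -3.41 to -1.33, edgeR adjusted p = 0.0382). They were the 2 of the 100 whose libraries did not overlap in this direction, against 0.127% of all transcripts tested. Levels in the other genotypes lay between. Rank 12 averaged 6154 ± 3421 CPM in [KO + ATF6α(N)], 6242 ± 1639 in [WT + XBP1(S)], 8573 ± 2225 in [WT + ATF6α(N)] and 8298 ± 3786 in WT hearts (SD, n = 6 each). Rank 49 averaged 2304 ± 1564, 1721 ± 500.2, 3260 ± 1077 and 2721 ± 1970 CPM in the same order. Both were split within [KO + ATF6α(N)] medaka, where replicates 2, 3 and 4 had 7721, 10055 and 9551 CPM of rank 12 and replicates 1, 5 and 6 had 4399, 3277 and 1918 CPM. Rank 49 was at 3743, 3975 and 3322 CPM in the first 3 of these libraries and at 1543, 843 and 401 CPM in the others. The ratio of rank 12 to rank 49 averaged 4.01 (3.27 to 4.54) in [KO + XBP1(S)] and 2.65 (2.08 to 3.08) in AXER-KO hearts. It averaged 3.04 in [KO + ATF6α(N)], 3.665 in [WT + XBP1(S)], 2.69 in [WT + ATF6α(N)] and 3.39 in WT hearts. Whether the falls of ranks 12 and 49 were unequal was not tested. The SD of log2 CPM within genotypes was 0.57 for rank 12 and 0.78 for rank 49, against a median of 0.24 over the 100. WT replicate 6 was the lowest and WT replicate 5 the highest WT library for both. They had 4393 and 14130 CPM of rank 12 and 1062 and 6322 CPM of rank 49. As both transcripts were high or low in the same libraries, the 2 calls are not independent results.

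**Figure D4:**
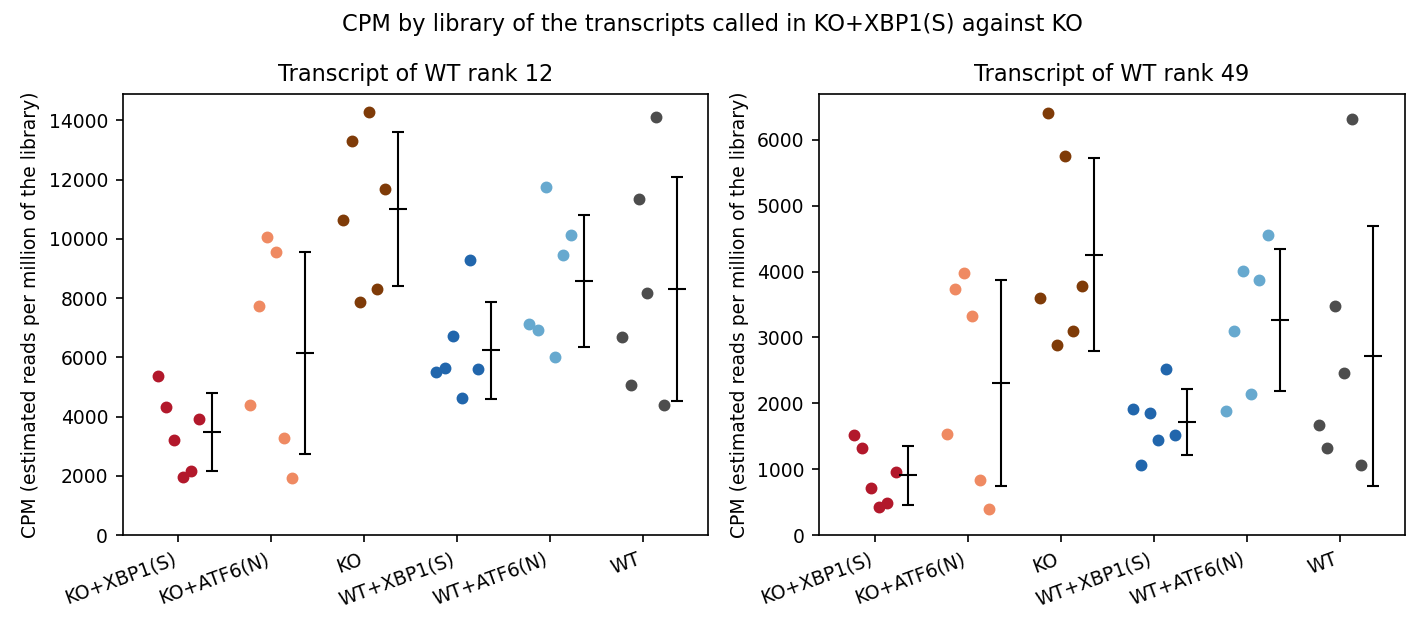
CPM of the transcripts of WT ranks 12 and 49 by genotype; a point is 1 library and the bar is the mean ± SD of 6 libraries. The KO+XBP1(S) libraries, at up to 5357 CPM for rank 12 and 1524 CPM for rank 49, all lie below the KO libraries, which start at 7862 and 2889 CPM.

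Both calls lay close to the threshold in edgeR. With all libraries the adjusted p was 8.34e-05 for rank 12 and 0.00049 for rank 49 from DESeq2, and 0.00417 and 0.0063 from limma-voom. Libraries were left out in edgeR alone. Rank 12 missed it without AXER-KO replicate 2 (adjusted p = 0.0535 from edgeR) or 4 (0.0506) and without [KO + XBP1(S)] replicate 3 (0.0524), 4 (0.0529) or 5 (0.0652), with log2 fold changes of -1.65 to -2.0 over all replicates left out in turn. Rank 49 missed it without AXER-KO replicate 1 (0.0695), 2 (0.121), 4 (0.0991), 5 (0.0505) or 6 (0.0531) and without [KO + XBP1(S)] replicate 2 (0.0506), 3 (0.117), 4 (0.105), 5 (0.13) or 6 (0.085), with log2 fold changes of -2.17 to -2.63. Without the 3 libraries that stand apart, the log2 fold changes were -1.69 and -2.24 and the adjusted p from edgeR 0.0679 and 0.12, so that 0 of the 100 were called, against 0.153% of all transcripts, and 0 were higher and 5 were lower at an unadjusted p under 0.05, against 7.47% of all.

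By estimate under TMM, 11 of the 100 were higher in [KO + XBP1(S)] than in AXER-KO hearts. The median log2 fold change was -0.23, against -0.02 over all transcripts tested. Under library totals 34 of the 100 were higher. Lower estimates were thus not particular to single transcripts. Ranks 1, 2, 3, 8 and 9 were among those lower by estimate but did not pass the test. Rank 1 had a log2 fold change of -0.50 (standard error 0.20, 95% interval -0.91 to -0.10, edgeR adjusted p = 0.488). Rank 8 averaged 11483 ± 3338 CPM in [KO + XBP1(S)] and 16815 ± 2550 CPM in AXER-KO hearts (SD, n = 6 each), with a log2 fold change of -0.70 (standard error 0.22, edgeR adjusted p = 0.245). Rank 27 went the other way, at 6059 ± 3145 CPM in [KO + XBP1(S)] and 3278 ± 1938 CPM in AXER-KO hearts (SD, n = 6 each), with a log2 fold change of 0.80 (standard error 0.37, edgeR adjusted p = 0.604), which was 0.46 without the 3 libraries that stand apart. Rank 27 was singled out after its values were seen.

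Constitutive expression of ATF6α(N) in AXER-KO medaka left 0 of the 100 called by edgeR, DESeq2 or limma-voom, and edgeR called 0% of all transcripts tested. At an unadjusted p under 0.05, 1 of the 100 was lower, against 2.25% of all transcripts tested. That was rank 12, at 1918 CPM at the lowest, 6060 at the median and 10055 at the highest in [KO + ATF6α(N)] libraries, against 7862, 11148 and 14289 CPM in AXER-KO libraries. The groups overlapped, and the log2 fold change was -0.85 (standard error 0.35, 95% interval -1.56 to -0.13, edgeR adjusted p = 1). For 83 of the 100 the 95% interval lay within a 1.5-fold change in either direction, against 22.7% of all transcripts tested. In the comparison of XBP1(S) in AXER-KO medaka this held for 42 of the 100, against 16.9% of all. The 100 were chosen for high levels. Their median standard error was 0.185 in both comparisons, against 0.342 and 0.352 over all transcripts tested. The gap from all transcripts is therefore no measure of how steady the 100 were.

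Between [KO + XBP1(S)] and [KO + ATF6α(N)] medaka, 0 of the 100 were called by edgeR, DESeq2 or limma-voom, against 0.166% of all transcripts tested by edgeR. At an unadjusted p under 0.05, 1 was higher and 13 were lower in [KO + XBP1(S)] hearts, against 7.62% of all transcripts tested. Without the 3 libraries that stand apart these were 0 and 7, against 7.04% of all, and under library totals 2 and 4, against 7.46% of all. Rank 49 had the lowest estimate, at 909 ± 445 CPM in [KO + XBP1(S)] and 2304 ± 1564 CPM in [KO + ATF6α(N)] hearts (SD, n = 6 each), with an estimate of -1.49 on the log2 scale (standard error 0.50, edgeR adjusted p = 0.397). Rank 95 had an estimate of 0.81 (standard error 0.68, edgeR adjusted p = 0.828), which was -0.52 without [KO + XBP1(S)] replicate 5, one of the 3 libraries that stand apart.

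Loss of AXER was compared within carriers of each active factor, so that the WT libraries that chose the transcripts do not enter the difference. They did enter the fit of all 36 libraries, and with it the scaling, the filter and the shared estimate of spread. Averaged over both factors, 0 of the 100 were called by edgeR, DESeq2 or limma-voom, against 0.647% of all transcripts tested by edgeR. At an unadjusted p under 0.05, 3 were higher and 5 were lower, against 9.81% of all transcripts tested. The lowest adjusted p was that of rank 36, which averaged 4002 ± 938 CPM in [KO + XBP1(S)] and 2959 ± 836 CPM in [WT + XBP1(S)] hearts, and 3529 ± 502 CPM in [KO + ATF6α(N)] and 2774 ± 427 CPM in [WT + ATF6α(N)] hearts (SD, n = 6 each). Its averaged log2 fold change was 0.39 (standard error 0.11, 95% interval 0.18 to 0.61, edgeR adjusted p = 0.0727), and without the 3 libraries that stand apart it was 0.41 (edgeR adjusted p = 0.0517). With single libraries left out it was 0.36 to 0.45 (edgeR adjusted p of 0.0133 to 0.149). These estimates are under a 1.5-fold change, so rank 36 could not be called at any p. Rank 36 was singled out after its values were seen. For 89 of the 100 the 95% interval of the averaged change lay within 1.5-fold, against 37.6% of all transcripts tested. The median standard error was 0.131 for the 100 and 0.246 over all, so nothing is read from this gap.

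Taken separately, the carriers of the factors gave estimates on opposite sides. In [KO + XBP1(S)] against [WT + XBP1(S)] medaka, 0 of the 100 were called by any of these tools, against 0.183% of all transcripts by edgeR, and 1 was higher and 58 were lower at an unadjusted p under 0.05, against 12% of all. Without the 3 libraries that stand apart, 2 of which are in this comparison, 0 were higher and 33 were lower, against 10.1% of all. In [KO + ATF6α(N)] against [WT + ATF6α(N)] medaka, 0 were called by any of them, against 0.603% of all transcripts by edgeR, and 18 were higher and 2 were lower at an unadjusted p under 0.05, against 6.62% of all. Without the 3 libraries that stand apart, 22 were higher and 2 were lower, against 7.38% of all. With TMM scaling the 100 had a median log2 fold change of -0.42 in XBP1(S) carriers and 0.27 in ATF6α(N) carriers. Over all transcripts tested the medians were -0.01 and -0.02. By estimate, 10 of the 100 were higher without AXER in XBP1(S) carriers and 89 in ATF6α(N) carriers. The median standard error of the 100 was 0.185 in both, against 0.354 and 0.341 over all transcripts. Smaller standard errors let changes of equal size pass more often. Nothing is therefore read from how far the counts at an unadjusted p lay from the shares over all. The difference between the changes was itself tested, and 0 of the 100 were called by any of the tools, against 0.0553% of all transcripts by edgeR, whereas 74 were lower at an unadjusted p under 0.05, against 9.63% of all. The smallest edgeR adjusted p among the 100 was 0.306. The median standard error of this difference was 0.262 for the 100 and 0.491 over all. Without the 3 libraries that stand apart, 0 were higher and 70 were lower for the difference, against 9.36% of all. For ranks 95 and 96 in [KO + ATF6α(N)] against [WT + ATF6α(N)] hearts the log2 fold change was -0.24 with all libraries and 1.28 and 1.29 without the 3 that stand apart. Without them edgeR called these 2 of the 100, against 0.589% of all transcripts, which is no test of a rise, since 1 of those libraries was set aside for its level of these transcripts. That library, [WT + ATF6α(N)] replicate 2, had 13470 CPM of rank 95 beside 874 to 1746 CPM in the other 5.

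Between [WT + XBP1(S)] and [WT + ATF6α(N)] medaka, edgeR and limma-voom called 0 of the 100, against 0.642% of all transcripts by edgeR. DESeq2 called 4 of them higher, ranks 2, 3, 78 and 82, against 0.564% of all transcripts. At an unadjusted p under 0.05 in edgeR, 61 were higher and 0 were lower in [WT + XBP1(S)] hearts, against 8.77% of all transcripts tested. Without the 3 libraries that stand apart these were also 61 and 0, against 8.84% of all. The median standard error was 0.185 for the 100 and 0.342 over all, so nothing is read from the gap between these shares. Rank 2 averaged 34081 ± 9747 CPM in [WT + XBP1(S)] and 27534 ± 5209 CPM in [WT + ATF6α(N)] hearts (SD, n = 6 each), with an estimate of 0.58 on the log2 scale (standard error 0.19, edgeR adjusted p = 0.312). Ranks 2, 3 and 78 belong to 1 set of near-constant ratio, and rank 82 is named after its values were seen. Rank 7 had an estimate of 0.66 (standard error 0.51, edgeR adjusted p = 0.789) that was -0.02 without [WT + XBP1(S)] replicate 1 and 0.66 without all 3 libraries that stand apart.

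The scaling of the libraries moved these medians. Fold changes above use TMM, which sets the bulk of transcripts near 0, whereas scaling by library totals holds the sum of all reads. Under totals the median of the 100 was -0.19 for AXER loss in XBP1(S) carriers, against 0.17 over all transcripts tested, and 0.06 for AXER loss in ATF6α(N) carriers, against -0.22 over all. For [WT + XBP1(S)] against [WT + ATF6α(N)] it was 0.11, against -0.26 over all, and for [KO + XBP1(S)] against AXER-KO it was -0.06, against 0.13 over all. The 100 thus kept the sign of their median in these 4 comparisons under both scalings, at a smaller size under totals. The number of the 100 at an unadjusted p under 0.05 depended more on the scaling. Between [WT + XBP1(S)] and [WT + ATF6α(N)] hearts, totals gave 1 higher and 12 lower, against 12.8% of all transcripts, where TMM gave 61 and 0. For AXER loss in XBP1(S) carriers totals gave 6 higher and 29 lower, against 11.6% of all, for AXER loss in ATF6α(N) carriers 9 higher and 4 lower, against 8.9% of all, and for the difference between the carriers 6 higher and 24 lower, against 13.5% of all. Ranks 12 and 49 were called under both, at -1.66 and -2.23 under totals (edgeR adjusted p = 0.015 and 0.0198).

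**Figure D5:**
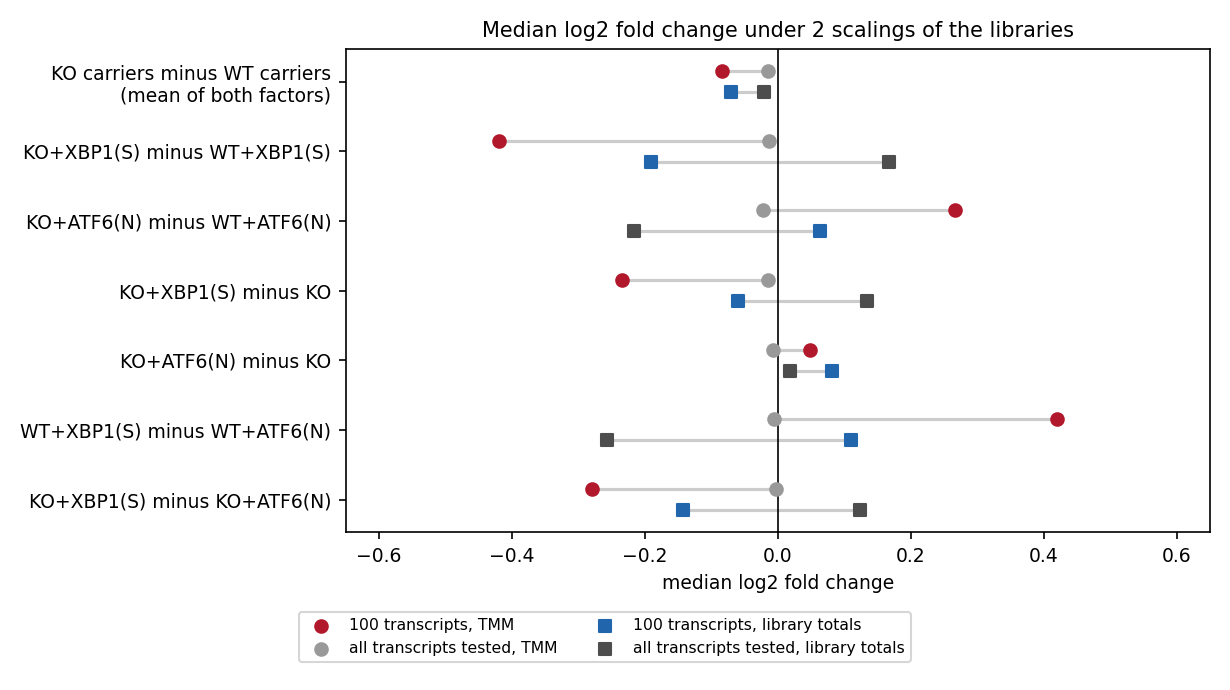
Median log2 fold change of the 100 transcripts and of all transcripts tested, under TMM and under library totals, in 7 comparisons without WT libraries. Under TMM the medians of all transcripts lie near 0 and those of the 100 lie between -0.42 and 0.42, and under library totals those of the 100 lie between -0.19 and 0.11.

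Against WT medaka the levels are a description, since the WT libraries chose the transcripts. The calls by edgeR were 0 of the 100 in AXER-KO, [WT + XBP1(S)] and [WT + ATF6α(N)] against WT medaka, where 0.642%, 0.597% and 0.0111% of all transcripts were called in this order, and nothing is read from these counts. DESeq2 and limma-voom called 0 as well. At an unadjusted p under 0.05, 7 of the 100 were higher and 3 lower in AXER-KO, 7 higher and 0 lower in [WT + XBP1(S)] and 0 higher and 1 lower in [WT + ATF6α(N)] against WT medaka, where 5.93%, 7.17% and 3.3% of all transcripts passed in this order. Under library totals the AXER-KO counts were 3 higher and 8 lower, against 7.42% of all, and the [WT + XBP1(S)] counts 1 higher and 8 lower, against 8.67% of all. Without the 3 libraries that stand apart they were 11 higher and 3 lower, against 6.74%, and 1 higher and 1 lower, against 5.77%. Rank 12 averaged 11010 ± 2606 CPM in AXER-KO and 8298 ± 3786 CPM in WT hearts, and rank 8 averaged 16815 ± 2550 CPM in AXER-KO and 11621 ± 2240 CPM in WT hearts (SD, n = 6 each). Between AXER-KO and WT medaka the 100 had a median log2 fold change of 0.03 under TMM and -0.11 under library totals, with 0.01 and -0.13 over all transcripts tested.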

How the data were processed

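RNA of medaka hearts (6 genotypes, 5 dpf) was sequenced by Lasy-Seq, in which each RNA is reverse-transcribed with its own index before pooling. The authors trimmed first reads with fastp 0.21.0, mapped them with BWA 0.7.17-r1188 and deposited estimated counts made with Salmon per transcript and library. The sources name mouse GRCm38 as the reference, whereas the identifiers are those of medaka transcripts, so the reference used is not certain. The labels (HdrR) and the paper (cab) differ in the strain, and they also differ in the amount of RNA.

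Estimated counts were divided by the library total for CPM and, for tests, rounded to whole numbers (1.88% were not whole, tolerance 1e-06). In R 4.3.3, edgeR 4.0.16 was used for quasi-likelihood tests (robust fit, a mean for each of 6 genotypes, 36 libraries), after filterByExpr (18076 transcripts, which include all 100) and TMM. Calls needed a Benjamini-Hochberg adjusted p under 0.05 over these transcripts and a fold change above 1.5. DESeq2 1.42.0, limma-voom (limma 3.58.1), other scalings, no filter, other list lengths and leaving out single libraries were tried. The fit was tested on simulated data. Comparisons with WT libraries, which chose the transcripts, are descriptions. The transcripts named are ranks 1 to 10, the 5 ranks on either side of the end of the list, those called, and the 5 with the widest span of genotype ranks, and identifiers are given for called ones only. Ranks 15, 27, 36, 42, 58, 82 and 191 and the sets of near-constant ratio fall outside this rule and were named after their values were seen. The transcripts and alternatives were chosen with earlier results of these data known. Lists of heart, erythrocyte and chaperone genes were not analysed here, because identifiers were not paired with names.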

Additional observations from a re-analysis of the deposited data

Results flagged for a closer look

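Among the 138 groups checked, 20 values lay far from the other 5 libraries of their genotype by Dixon's test (critical value 0.625 for 6 libraries). Chance gives about 1 in 20 groups, or 6.9 of 138, and several of the 20 share a library or a set of near-constant ratio. Some of the ranks checked were named for a wide span of rank or after their values were seen. Nothing is therefore read from the excess over 6.9.

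The 3 libraries described as standing apart, which were picked after such values were seen, gave 14 of the 20. In [KO + XBP1(S)] replicate 5, rank 7 was at 55417 CPM (8758 to 19867 in the other 5), rank 95 at 19554 CPM (1288 to 2858), rank 96 at 19521 CPM (1229 to 2796) and rank 100 at 2297 CPM (1205 to 1493), whereas rank 36 was low at 2221 CPM (3960 to 4800) and rank 98 at 1091 CPM (1645 to 1769). In [WT + XBP1(S)] replicate 1, rank 7 was at 59399 CPM (9255 to 22249), rank 95 at 8014 CPM (1379 to 3000), rank 96 at 7950 CPM (1394 to 2964) and rank 100 at 4463 CPM (1258 to 2060). In [WT + ATF6α(N)] replicate 2, rank 7 was at 45889 CPM (7233 to 15701), rank 95 at 13470 CPM (874 to 1746), rank 96 at 13322 CPM (867 to 1728) and rank 100 at 2906 CPM (1372 to 1823). The cause of these values was not tested.

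Of the other values, rank 5 was low at 12522 CPM in [KO + ATF6α(N)] replicate 2 (16437 to 17846 in the other 5). Rank 10 was low at 9075 CPM in [KO + ATF6α(N)] replicate 4 (10117 to 10539), high at 11109 CPM in AXER-KO replicate 2 (9202 to 9851) and low at 8972 CPM in WT replicate 3 (9994 to 10242). WT replicate 5 held 87 of the 100 transcripts among its own first 100, against 95 to 98 in the other 5 WT libraries, and had rank 36 at 2152 CPM (3146 to 3660).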

How the results depend on the processing

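The calls of ranks 12 and 49 depended on the setting. In AXER-KO medaka with XBP1(S), 0 of the 100 were called without the filter on low counts (edgeR adjusted p of 0.0547 for rank 12 and 0.0887 for rank 49) and 0 without the 3 libraries that stand apart, and 0 to 2 when single libraries were left out. The 3 libraries were chosen after seeing the data. Without them, 2 of the 100, ranks 95 and 96, were called in [KO + ATF6α(N)] against [WT + ATF6α(N)] medaka, which is no test of them, since 1 library was set aside for its level of these transcripts. Over the 200 highest transcripts, 1 was called for AXER loss averaged over carriers (0.647% of all transcripts tested) and 1 in ATF6α(N) carriers (0.603%). Between [WT + XBP1(S)] and [WT + ATF6α(N)] medaka 1 was called (0.642%). Against WT medaka 2 were called in AXER-KO (0.642%) and 1 in [WT + XBP1(S)] medaka (0.597%). Counts this small lie near the shares over all transcripts, so nothing is read from them. DESeq2 called 4 of the 100 between [WT + XBP1(S)] and [WT + ATF6α(N)] medaka, against 0.564% of all transcripts. The estimate of rank 95 reversed to -0.52 without [KO + XBP1(S)] replicate 5 and to -0.51 without the 3 libraries for [KO + XBP1(S)] against [KO + ATF6α(N)], and to -0.82 and -0.10 for [KO + XBP1(S)] against [WT + XBP1(S)] medaka. With single libraries left out these estimates lay between -0.52 and 0.98 and between -0.82 and 1.202. That of rank 7 for [WT + XBP1(S)] against [WT + ATF6α(N)] medaka lay between -0.025 and 1.35, and it reversed without [WT + XBP1(S)] replicate 1. Leaving out rank 1 must lower the share of reads, since rank 1 held 4.38% ([WT + ATF6α(N)]) to 6.72% (AXER-KO) by genotype mean. The share was then 42.4% in [KO + XBP1(S)], 44.9% in [KO + ATF6α(N)], 45.6% in AXER-KO, 41.4% in [WT + ATF6α(N)] and 42.7% in WT hearts. Without the 6 transcripts that stand apart, it was 42.4% in [KO + XBP1(S)], 44.3% in [WT + XBP1(S)] and 41.5% in [WT + ATF6α(N)] hearts. Of the alternatives of the main results, 388 kept within 1.5 times the count or within 1 SD and 27 moved. Among those that moved are the shares without rank 1 or the 6 transcripts, whose fall was fixed in advance. Every comparison but that of XBP1(S) in AXER-KO medaka had a main count of 0, and most of these counts stayed at 0. For XBP1(S) in AXER-KO medaka, 12 of 24 alternatives kept the count. With leave-one-out, shares moved between 43.7% and 49.9% over genotypes. A list limited to whole estimates gave no value, since 0 of the 100 were whole in every library. No paired analysis was possible because the labels carry no replicate numbers, and those used here are only the order of the libraries.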
